A study of Ovis aries with 12 samples.

Results

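The miRNA described here carry bovine names from miR-2281 to miR-2490, or miR-3431 or miR-3432, on a custom miRNA array that was hybridised with RNA from sheep hearts. A probe was a member if its species prefix was bovine and its base name held such a number, with any letter, arm or variant suffix, so that no measured value entered the choice. This gave 288 of 3091 probes: 187 of the miR-2284/miR-2285 family, 16 of miR-3431, 6 of miR-2478, 1 of mir-2487 and 78 of other miRNA. The array held 606 further bovine probes that were not members.

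Left ventricles of 12 untreated Merino sheep were measured on 1 array each, 3 animals at each of 4 ages: fetuses at F91 (91 days of gestation in the titles of the samples, 90 days in their stage field), fetuses at F140 (141 days in the labels), lambs at P5 (5 days after birth) and lambs at P173 (173 days). Only F91 replicate 3 was male. All P5 lambs were twins, and at the other ages F140 replicate 2 was the only twin, so twin birth and age cannot be told apart at P5. P5 replicates 1 and 2 carry array names with the same number and the letters A and B, and replicate 3 another number. Whether the first 2 lambs shared a dam is not given, and if they did, they are not independent animals. The ages bracket the period in which heart muscle cells of the sheep stop dividing and go on growing by enlargement.

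A miRNA is cut from a hairpin precursor, and either arm of the hairpin can be kept as a mature strand of about the same length. Bases 2 to 8 of the mature strand form the seed, which pairs with target transcripts, and miRNA that share a seed are grouped as a family. The miR-2284/miR-2285 miRNA form a large family of many near-identical hairpins that was described in cattle and expanded in ruminants. The hairpins of miR-2478, mir-2487 and miR-3431 were also first named in cattle. In the names below, miR marks a deposited mature strand, mir with p5 or p3 a stretch read from a hairpin, L and R count bases added to or taken from the 5′ and 3′ ends, and ss marks substituted bases.

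The sequences on which the results turn are those each probe was designed to capture, as the scanner files give them, 5′ to 3′, with bases 2 to 8 in capitals. The first 4 show that the p5 and p3 of the names do not separate the arms of miR-3431, the next 3 are miR-2478 and mir-2487, and the last 8 show both sequence sets of the miR-2284/miR-2285 family and the probes of it that are singled out below.
bta-miR-3431: cCUCAGUCagccuuguggaugu
bta-mir-3431-p5_2ss18GC19AT: cCUCAGUCagccuugugcu
bta-mir-3431-p3: cAUCUAGAggacugacuga
bta-mir-3431-p5: aUCUAGAGgacugacugaaa
bta-miR-2478: gUAUCCCAcuucugacacca
bta-mir-2478-p5_1ss2TC: uCGUAUCCcacuucugacac
bta-mir-2487-p5_1ss16CT: gCUCUAAGggcugggucggu
bta-miR-2284x: uGAAAAGUucguucggguuuu
bta-miR-2284y: aAAAGUUCguucggguuuuuc
bta-mir-2285m-3-p5: cAAAAGGUucauuuggguuuuu
bta-mir-2285k-3-p5_1ss12TA: aAAAGUUCauuaggguuuuucua
bta-mir-2284f-p3_2ss5CA22CT: aAACACGAacaaacuuuuuggu
bta-mir-2284z-6-p3_1ss7AG: aAAUCCGAacgaacuuuuuggc
bta-mir-2284aa-3-p3: aAAAUCCGaacgaacuuuuugg
bta-mir-2285l-p5: aGUAACACcuuagaga

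Sequence alone sorted the miR-3431 probes into 2 arms. miR-3431 and the reverse complement of mir-3431-p3 shared a stretch of 8 bases. The name opposite arm is a working name, and pairing in the hairpin was not tested. The mature arm held 10 probes, including mir-3431-p5_2ss18GC19AT, which shares its first 17 bases with miR-3431. The opposite arm held 6 probes, and the probes named mir-3431-p3 and mir-3431-p5 share 18 bases of it. Within the miR-2284/miR-2285 family, 60 of 187 probes held the letters GUUNNUU, where N is any base, and 80 others held AACUUU. Of the 2803 probes that were not members, 1.36% held GUUNNUU and 1.46% held AACUUU on the captured strand, the only strand searched. miR-2284x and the reverse complement of mir-2284aa-3-p3 shared a stretch of 14 bases, as opposite arms of a hairpin can, whereas miR-2284y and that of mir-2284f-p3_1ss6CA shared 7. The sets are therefore called by their letters, and the arm of each probe was not determined. miR-2284y, an l variant of miR-2284 and the mir-2285k-3 and mir-2285b-2 variants had the seed AAAGUUC in common, and miR-2284x and 4 other probes with at least 32 units at an age had the seed GAAAAGU. Many members therefore captured overlapping sequences, and probes of one arm are not independent measurements.

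Values are the normalised intensity of a probe in units on a linear scale, and an age at which the 3 arrays read under 32 units was treated as not above background. Most members were dim. A mean of 32 units at 1 age or more was reached by 61 of 288 members (21.2%), against 37.7% of all probes and 56.6% of the other bovine probes. It was reached by 15 of 16 miR-3431 probes, 6 of 6 miR-2478 probes, the mir-2487 probe, 30 of 187 miR-2284/miR-2285 probes (16%) and 9 of 78 other members. In the family it was reached by 23 of 60 GUUNNUU probes, 6 of 80 AACUUU probes and 1 of 47 with neither. The probes of the family were rich in A and U, with a median GC content of 36.4%, against 47.4% over all probes.

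Depth differed between the arrays. The 90th percentile of scanner brightness lay between 329 (F91 replicate 3) and 2002 (P173 replicate 1), and the number of members at 32 units or more lay between 33 (P173 replicate 2) and 53 (F140 replicate 2), with 35 on F91 replicate 3. Of 5 heart muscle markers, miR-133a, miR-1 and miR-499 averaged over 100 units at every age. miR-133a was at 11164, 10792, 14964 and 15209 units and miR-1 at 1285, 16175, 7513 and 9346 units at F91, F140, P5 and P173. miR-208a and miR-208b were under 32 units at F91, at 0.333 and 3.33, and 1 of the 5 markers was under it at each later age. The summed level of all 5 was 33882 to 44574 at F140 and 13080 to 14574 at F91. Brain and pancreas markers with a probe averaged under 32 units. Markers of other cell types also differed between F140 and F91. The summed level of 3 red cell markers was 3565 to 5169 at F140 and 801 to 1976 at F91, that of 3 leukocyte markers 196 to 276 at F140 and 56 to 121 at F91, and that of 2 fibroblast markers 3013 to 4101 at F140 and 528 to 2640 at F91. The endothelial marker miR-126 read 6044 to 8703 units at F140 and 923 to 4211 at F91, while the sum of 2 smooth muscle markers overlapped, at 6271 to 7431 at F140 and 4718 to 7358 at F91. The part of cell composition and of scan brightness in the results below was not tested.

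Changes with age were tested with limma on log2(value + 0.1), with Benjamini-Hochberg adjustment over the 3091 probes and a call at an adjusted p of 0.05 or less. The F-test over the 4 ages called 24 members (8.33%), against 8.7% of all probes and 10.4% of the other bovine probes, so that the members as a whole were called about as often as the background. The calls were unevenly spread over the groups: 14 of 16 miR-3431 probes, 3 of 6 miR-2478 probes, the mir-2487 probe, 5 of 187 miR-2284/miR-2285 probes and 1 of 78 others. For F140 against F91, 19 members were called (6.6%; all probes 5.53%), of which 6 were higher (2.08%; all probes 3.85%) and 13 lower (4.51%; all probes 1.68%). All 6 belonged to the miR-2284/miR-2285 family and all 13 to miR-3431. With the replicate number as a block, 18 of the 288 members were called in that comparison (6.25%; all probes 5.69%), and with a GC trend taken out of each array 8 were (2.78%; all probes 5.08%). In a fit of both ages alone 1 member was called (0.347%; all probes 0.291%). With the block in that fit limma called no member and no other probe, with 49 members at an unadjusted p under 0.05 (17%; all probes 17.2%). For P5 against F140, 5 members were called (1.74%; all probes 1.81%), of which 1 was higher (0.347%; all probes 0.841%) and 4 lower (1.39%; all probes 0.971%). For P173 against P5, 3 members were called (1.04%; all probes 1.59%), all of them higher (all probes 0.906%) and none lower (all probes 0.679%). In that comparison limma gave 12 members an unadjusted p under 0.05 in either direction (4.17%; all probes 10.9%). For P173 against F91, 21 members were called (7.29%; all probes 6.76%), of which 6 were higher (2.08%; all probes 3.24%) and 15 lower (5.21%; all probes 3.53%).

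**Figure D1:**
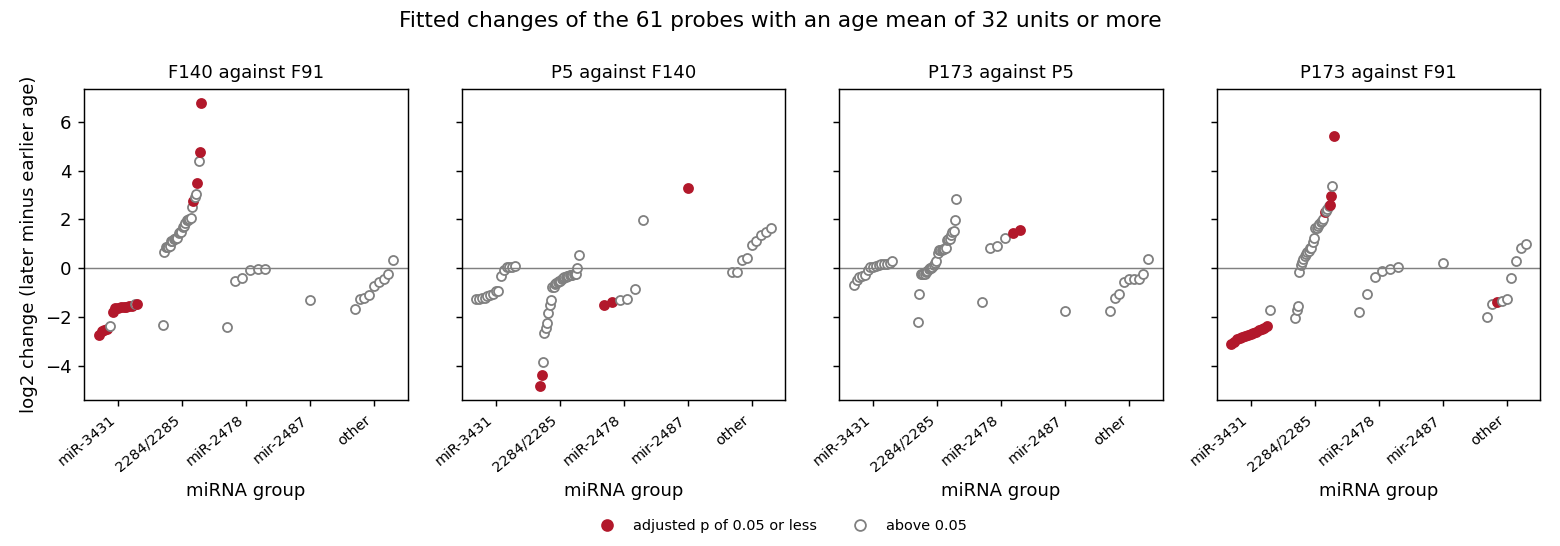
Fitted log2 change (later minus earlier age) of the 61 members with an age mean of 32 units or more, 1 panel for each comparison and 1 column of points for each group of miRNA; each point is a probe, ordered by its change within the group, and filled points have an adjusted p of 0.05 or less. For F140 against F91, 13 filled points lie below 0, all of miR-3431, and 4 above it, all of the miR-2284/miR-2285 family. A probe that reached 32 units at 1 age alone had to differ from the others, so the direction of the open points is not a result.

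Both arms of miR-3431 were highest in the youngest fetuses. miR-3431 itself read 586, 533 and 427 units at F91 (replicates 1 to 3), 119, 234 and 196 at F140, 78, 89 and 58 at P5, and 89, 72 and 84 at P173. Every F91 array was above every array of the later ages, and the arrays of P5 and P173 overlapped. Its means at F91, F140, P5 and P173 were 515 ± 81, 183 ± 58.6, 75 ± 15.7 and 81.7 ± 8.74 units (SD, n = 3). It fell by 1.54 on the log2 scale at F140 relative to F91 (SE 0.36, limma adjusted p = 0.024) and by 2.65 at P173 relative to F91 (SE 0.36, adjusted p = 0.00031). Its change at P5 relative to F140 was -1.25 (SE 0.36, adjusted p = 0.097), and at P173 relative to P5 it was 0.14 (SE 0.36, adjusted p = 0.92).

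All 10 probes of the mature arm had negative changes in both comparisons with F91. They ranged from -1.81 to -1.47 for F140 against F91, where 9 of 10 were called, and from -2.77 to -1.74 for P173 against F91, where again 9 of 10 were called. Over all probes the median change was 0.07 for F140 against F91 and 0.01 for P173 against F91. The exception in both was miR-3431_R-4_1ss17GT, with 523, 230 and 87 units at F91 and means of 86, 64 and 65.7 at F140, P5 and P173 (adjusted p = 0.2 for F140 against F91 and 0.11 for P173 against F91). The mean levels of the 10 probes lay between 280.0 and 714 units at F91, 86 and 247 at F140, 59.3 and 109 at P5, and 58.3 and 115 at P173. The variants with the age profile of miR-3431 included miR-3431_R-3_1ss19AG, at 714 ± 64.4, 247 ± 67.2, 109 ± 8.74 and 115 ± 2.89 units at F91, F140, P5 and P173, and mir-3431-p5_2ss18GC19AT, at 387 ± 113, 126 ± 26.1, 66 ± 18.1 and 73.3 ± 5.69 at the same ages.

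The opposite arm read high at F91 only. mir-3431-p3 gave 233, 235 and 243 units at F91, 40, 53 and 35 at F140, 38, 52 and 40 at P5, and 42, 20 and 43 at P173. The F91 arrays lay within 10 units of each other and apart from the 9 later arrays, which overlapped one another. It fell by 2.49 on the log2 scale at F140 relative to F91 (SE 0.43, adjusted p = 0.0064) and fell by 2.84 at P173 relative to F91 (SE 0.43, adjusted p = 0.00067), with changes of 0.03 at P5 relative to F140 and -0.38 at P173 relative to P5 (adjusted p = 1 and 0.8). mir-3431-p5 gave 180, 196 and 170 units at F91, 24, 48 and 25 at F140, 30, 38 and 21 at P5, and 28, 14 and 35 at P173. It fell by 2.56 at F140 relative to F91 (SE 0.50, adjusted p = 0.01) and by 2.92 at P173 relative to F91 (SE 0.50, adjusted p = 0.0018).

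Of the other 4 probes of the opposite arm, 3 averaged 93 to 129.7 units at F91 and at most 21.3 units at each later age. mir-3431-p3_2ss17GC18AT was at least 4.03-fold lower at F140 than at F91 (adjusted p = 0.027), mir-3431-p5_1ss16TA at least 3.07-fold lower (adjusted p = 0.019), and mir-3431-p3_1ss19AG at least 2.86-fold lower (adjusted p = 0.056), each bound taken at 32 units because no F140 array was above that level. Their means at P173 were 19.3, 14 and 14 units. The probe mir-3431-p5_1ss11AG stayed between 0 and 17 units on the 12 arrays. Whether the 2 arms differed in their change was not tested.

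The call of miR-3431 at F140 ended in more alternatives than its call at P173. In 1 alternative, a linear trend with GC content of log2 deviations from probe means was taken out of each array. That trend was fitted on probes averaging 100 units or more. For F140 against F91 it left 1 of 10 probes of the mature arm called and 4 of 6 of the opposite arm. The change of miR-3431 was then -1.29 (adjusted p = 0.065). For P173 against F91, 9 of 10 and 5 of 6 were called. With that trend taken out all 10 changes of the mature arm at F140 remained negative, with a median of -1.18, against -1.58 with it left in. Without F140 replicate 1, which read lowest for miR-3431 at that age, the change of miR-3431 was -1.25 (adjusted p = 0.12) and that of mir-3431-p3 -2.46 (adjusted p = 0.034). miR-3431 was also not called at F140 without the variance trend (adjusted p = 0.099, with the same change), nor without F91 replicate 2 or F140 replicate 3 (adjusted p = 0.07 and 0.058), whereas its P173 call held without any single array. In the opposite arm, mir-3431-p5 was not called for F140 against F91 without F140 replicate 1, and the 2 dimmer called probes were not called without F91 replicate 2, F140 replicate 1 or F140 replicate 3. Marker sums also differed between P173 and F91, at 4907 to 7037 and 801 to 1976 units for red cells, 352 to 354 and 56 to 121 for leukocytes, and 26533 to 34181 and 13080 to 14574 for heart muscle. Those of fibroblasts (390 to 941 and 528 to 2640), endothelium (3535 to 3963 and 923 to 4211) and smooth muscle (5753 to 6003 and 4718 to 7358) overlapped between P173 and F91. Their part in the results for P173 against F91 was not tested.

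**Figure D2:**
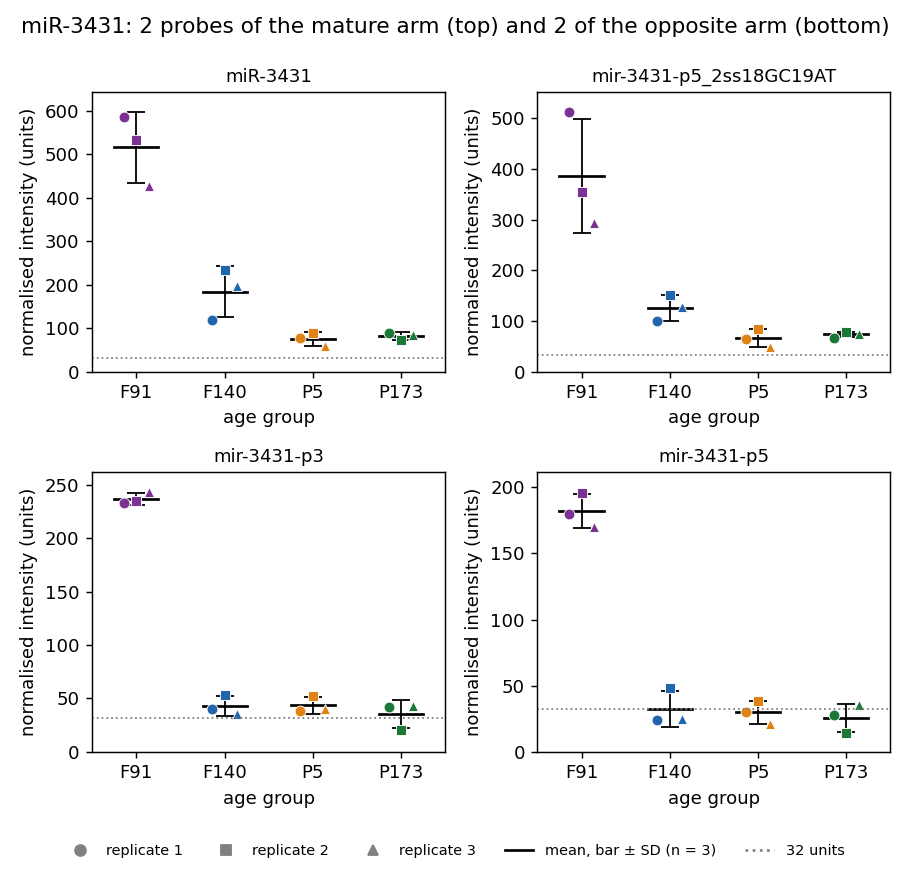
Normalised intensity in units (y axis, from 0) at each age (x axis) for 2 probes of the mature arm of miR-3431 (top) and 2 of the opposite arm (bottom); points are single arrays, horizontal bars means, whiskers SD (n = 3), and the dotted line marks 32 units. The 3 F91 arrays lie above all 9 later arrays in each panel.

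miR-2478 was low at P5 and level at the other ages. It read 1008, 698 and 847 units at F91, 849, 817 and 804 at F140, 262, 312 and 387 at P5, and 1028, 906 and 688 at P173. The 3 P5 arrays were below the 9 others, which overlapped. It fell by 1.38 on the log2 scale at P5 relative to F140 (SE 0.28, adjusted p = 0.026) and rose by 1.45 at P173 relative to P5 (SE 0.28, adjusted p = 0.017). For F140 against F91 its change was -0.03 and for P173 against F91 0.03 (adjusted p = 0.98 and 0.97).

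The probe miR-2478_L+3, which holds all 20 bases of miR-2478, averaged 889.7, 850.0, 302 and 880.0 units at F91, F140, P5 and P173 and was called in the same comparisons. mir-2478-p5_1ss2TC shares 18 bases with miR-2478 and averaged 477 ± 122, 447 ± 63.6, 187 ± 55.4 and 437 ± 72.5 units at the same ages. It passed the F-test (adjusted p = 0.031), with changes of -1.29 at P5 relative to F140 and 1.25 at P173 relative to P5 (SE 0.32 each, adjusted p = 0.061 and 0.08). All 5 probes of this strand had negative changes for P5 against F140, between -1.52 and -0.86, and positive ones for P173 against P5, between 0.81 and 1.55, with 2 of 5 called in each. mir-2478-p3_1ss2TC read 7, 32 and 46 units at P5, against 246, 61 and 33 at F91, and was called nowhere. The sixth probe, mir-2478-p5_2ss4AG17TG, was not assigned to this strand by its sequence, and its place in the hairpin was not determined. It averaged 55.3, 12.7, 37.3 and 14.3 units at the 4 ages, with no call.

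miR-2478 ends in ACACCA, as do 3 of the 6 miR-2478 probes and 3 of the 2803 probes that were not members. As background, mature tRNA molecules end in CCA. The source of the RNA that bound these probes was not tested. miR-2478 also shares 18 bases with a probe outside the group, PC-3p-8998_497. The calls between P5 and its neighbouring ages ended when some arrays of the ages compared were left out. Without each P5 or F140 array in turn the change of miR-2478 at P5 relative to F140 was -1.53 to -1.24, with adjusted p of 0.062 to 0.13. At P173 relative to P5 it was not called without P5 replicate 1 or 2 or P173 replicate 1 or 2 (adjusted p = 0.1, 0.08, 0.085 and 0.058). The leukocyte sum was also lower at P5, at 78 to 111 units, against 352 to 354 at P173 and 196 to 276 at F140. Of those 3 markers, 2 were under 32 units at P5 and P173, and miR-223 averaged 24.3 and 22.7 units there. Lower at P5 than at F140 were also the sums of heart muscle (17668 to 30192 and 33882 to 44574), endothelial (2197 to 4476 and 6044 to 8703) and fibroblast markers (644 to 1897 and 3013 to 4101). Red cell and smooth muscle sums overlapped between P5 and F140. The part of these markers in the result was not tested.

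mir-2487-p5_1ss16CT was high at P5. It read 195, 622 and 660 units at F91, 134, 158 and 243 at F140, 1584, 1364 and 2289 at P5, and 1103, 307 and 358 at P173. Every P5 array was above every array of the other ages, with P173 replicate 1 nearest. It rose by 3.30 on the log2 scale at P5 relative to F140 (SE 0.54, adjusted p = 0.0089), which is the only called rise among the members between those ages. It changed by -1.78 at P173 relative to P5 (SE 0.54, adjusted p = 0.15), by -1.32 at F140 relative to F91 (SE 0.54, adjusted p = 0.21) and by 0.20 at P173 relative to F91 (SE 0.54, adjusted p = 0.91). It has a GC content of 65%. Once values were corrected for GC content the change at P5 was 2.75 (adjusted p = 0.0099). It was no longer called without P5 replicate 1, P5 replicate 3 or F140 replicate 1 (adjusted p = 0.062, 0.062 and 0.054). The liver marker miR-122 was also higher at P5, at 17 to 66 units, against 4 to 12 at F140. All its F140 values and its lowest P5 value were under 32 units. As given above, the heart muscle, endothelial, fibroblast and leukocyte sums were lower at P5 than at F140. The part of these markers in the result was not tested.

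**Figure D3:**
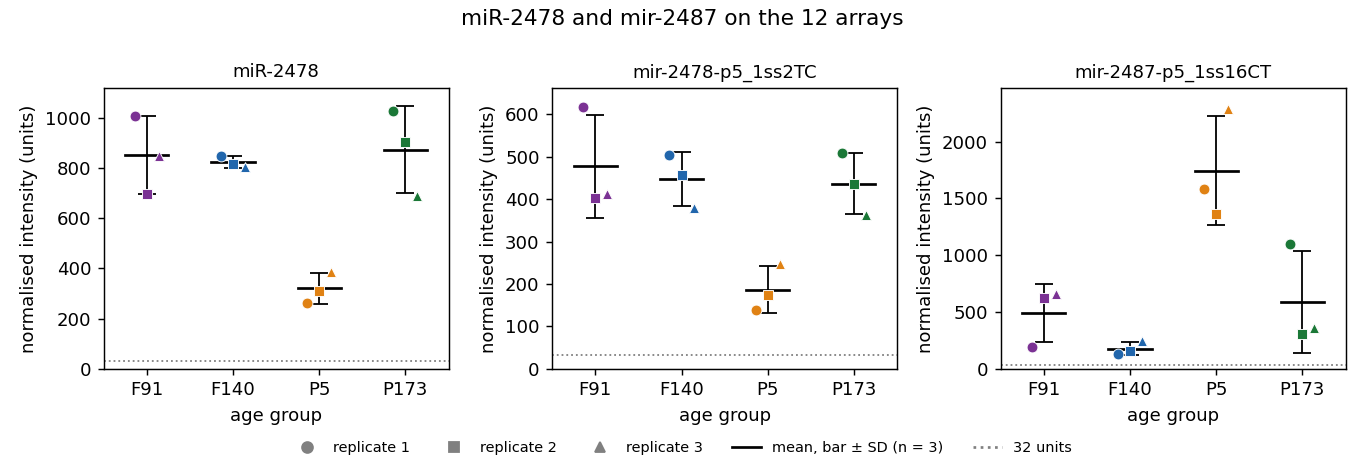
Normalised intensity in units (y axis, from 0) of 2 miR-2478 probes and the mir-2487 probe at each age (x axis); points are single arrays, horizontal bars means, whiskers SD (n = 3). The P5 arrays are the lowest 3 for miR-2478 and the highest 3 for mir-2487.

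miR-2284x and miR-2284y, mature strands of miR-2284, averaged over 32 units at every age and were not called. The first, read 179, 119 and 45 units at F91, 214, 235 and 186 at F140, 191, 141 and 116 at P5, and 227, 104 and 177 at P173. The F140 arrays were above the F91 arrays, while P5 and P173 overlapped both. Its change was 1.09 at F140 relative to F91 (SE 0.49, adjusted p = 0.27) and between -0.53 and 0.71 in the other comparisons (adjusted p of 0.49 to 0.94). miR-2284y read 149, 95 and 61 units at F91, 173, 205 and 161 at F140, 156, 135 and 75 at P5, and 184, 89 and 146 at P173, with a change of 0.91 at F140 relative to F91 (SE 0.44, adjusted p = 0.32).

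The l variant of miR-2284 averaged 81 ± 68.4, 155 ± 50.5, 151 ± 35.9 and 135 ± 65.6 units at the 4 ages, and read 3 units on F91 replicate 3. The b variant averaged 57 ± 40.1, 112 ± 43.1, 74.3 ± 8.08 and 76.3 ± 26.4 units. Of the 8 miR-2284 probes of the GUUNNUU set with 100 units or more at an age, limma called none in any comparison. Its unadjusted p was under 0.05 for 2 of the 8 for F140 against F91 (all probes 16.9%) and for none in the others. At F91, F140 and P173, miR-2284x, miR-2284y and the l and b variants were each lowest on the array with the dimmest scan of the age, replicate 3 at F91 and F140 and replicate 2 at P173. At P5 the dimmest scan was that of replicate 2, and none of the 4 was lowest on it.

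Over the 187 family probes, 128 had positive and 58 negative changes for F140 against F91, with a median of 0.88, against a median of 0.07 over all probes of the array. Of the 187, 6 were called higher (3.21%; all probes 3.85%) and none lower, and no test of the set was run. The median change was 1.20 over the 60 GUUNNUU probes, 1.27 over the 80 AACUUU probes and 0.00 over the 47 with neither. Most of these probes were under 32 units at both ages, with a median level over the 187 of 5.33 units at F140 and 3.33 at F91. The slope of log2 values with GC content was -0.32 ± 0.15 per 10 percentage points of GC at F140, against 0.18 ± 0.36 at F91 (mean and SD, n = 3). With that trend taken out, 102 of the 187 changes were above 0 and the median was 0.22. From scanner intensities normalised by quantile, the median of the 187 was 0.02. That setting adds an offset of 50 to each intensity, which shrinks the log2 changes of dim probes. Its median therefore cannot show whether these probes changed.

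Among the AACUUU probes, 2 of the 3 mir-2284f-p3 probes were high at F140 alone, and the other, mir-2284f-p3_1ss5CT, averaged at most 21 units at each age. mir-2284f-p3_2ss5CA22CT read 1, 8 and 14 units at F91, 349, 97 and 76 at F140, 11, 3 and 3 at P5, and 40, 16 and 10 at P173. Every F140 array was above every other array, and only 1 of the other 9 reached 32 units. The probe was at least 4.29-fold higher at F140 than at F91 (adjusted p = 0.016) and at least 4.29-fold lower at P5 than at F140 (adjusted p = 0.028), with both bounds taken at 32 units. Its near copy mir-2284f-p3_1ss6CA, which shares 21 bases with it, averaged 9, 108, 4 and 15.3 units at F91, F140, P5 and P173 and was called in the same comparisons (adjusted p = 0.045 and 0.032).

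The calls of mir-2284f-p3_2ss5CA22CT ended in several alternatives. Without F140 replicate 1, the highest array, the probe was at least 2.69-fold higher at F140 than at F91 (adjusted p = 0.097). Corrected for GC content the probe was called neither for F140 against F91 (adjusted p = 0.058) nor for P5 against F140 (adjusted p = 0.074). Without the variance trend, which leaves the fitted changes as they are, neither was called (adjusted p = 0.067 and 0.1). For P5 against F140 the adjusted p was between 0.063 and 0.13 without each P5 array in turn, and 0.13 and 0.078 without F140 replicates 1 and 2. The near copy was not called for F140 against F91 with the replicate block (adjusted p = 0.061), nor in 10 of the 12 fits with a single array left out (adjusted p of 0.052 to 0.22 in those 10). Its call for P5 against F140 ended without F140 replicate 1 or 2 (adjusted p = 0.14 and 0.081), without each P5 array in turn (0.088 to 0.12) and with correction for GC content (0.088). No call in the miR-2284/miR-2285 family held when values under 32 units were set to 32, with an adjusted p of 0.05 (just above the threshold) and 0.088 for both comparisons of mir-2284f-p3_2ss5CA22CT.

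The other family members called for F140 against F91 were dim. mir-2284z-6-p3_1ss7AG, which shares 21 bases with mir-2284aa-3-p3, read 34, 52 and 15 units at F140 and 2, 0 and 0 at F91 (adjusted p = 0.0083). No fold is given, because the F140 mean lies near 32 units. It averaged 5 units at P5 and 13 at P173, and was also called for P173 against F91 (adjusted p = 0.015). mir-2284aa-3-p3 read 32, 55 and 17 units at F140 and 0, 4 and 8 at F91 and was not called (adjusted p = 0.23). mir-2285k-3-p5_1ss12TA averaged 43.7 ± 20 units at F140 and 6 ± 1.73 at F91, at least 1.26-fold higher (adjusted p = 0.036), and 12.7 and 20.7 units at P5 and P173. That call ended without any 1 of the F140 arrays, F91 replicate 2 or 3, or P5 replicate 1. mir-2285b-2-p5_1ss12TA, which shares 22 bases with it, averaged 50.3 ± 17.4 units at F140 and 13.3 ± 6.03 at F91 and was not called (adjusted p = 0.63). The remaining 2 called probes averaged under 32 units at every age: miR-2284aa averaged 0, 12, 3.33 and 3.67 units and mir-2284z-5-p5_1ss1AG 0, 16.7, 3.67 and 11 units at F91, F140, P5 and P173. Both were also called for P173 against F91 (adjusted p = 0.02 and 0.012).

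In the GUUNNUU set, mir-2285m-3-p5 and 2 near copies of it rose between F91 and P173. The first read 87, 38 and 34 units at P173 and 11, 5 and 9 at F91, with 18, 31 and 31 at F140 and 18, 33 and 16 at P5. The P173 arrays were all above the others. It was at least 1.51-fold higher at P173 than at F91 (adjusted p = 0.018). The variants 1ss1AG and 2ss1AG21TC averaged 51 and 45 units at P173 and 7 and 8.67 at F91 (adjusted p = 0.027 and 0.034). Over all 12 mir-2285m-3-p5 probes, 10 had positive and 2 negative changes for P173 against F91. These calls rest partly on P173 replicate 1: without it mir-2285m-3-p5 was at least 1.13-fold higher and not called (adjusted p = 0.11), nor was it called without F91 replicate 2 (adjusted p = 0.064). A probe outside the group, PC-5p-11673_362, shares 20 bases with mir-2285m-3-p5.

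The level of mir-2285l-p5 was uneven between the arrays of an age. It read 2835, 518 and 765 units at F91, 197, 209 and 207 at F140, 369, 345 and 203 at P5, and 71, 1190 and 187 at P173. All F91 arrays were above those of F140 and P5, and P173 replicate 2 was above 2 of the 3 F91 arrays. The change at F140 relative to F91 was -2.35 (SE 0.81, adjusted p = 0.13), and the F-test gave an adjusted p of 0.24. mir-2285t-p5_1ss1CG averaged 53.3 ± 64.7, 60.7 ± 21.1, 21.3 ± 8.5 and 21.3 ± 21 units at the 4 ages, with 128 units on F91 replicate 1 alone and no call.

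**Figure D4:**
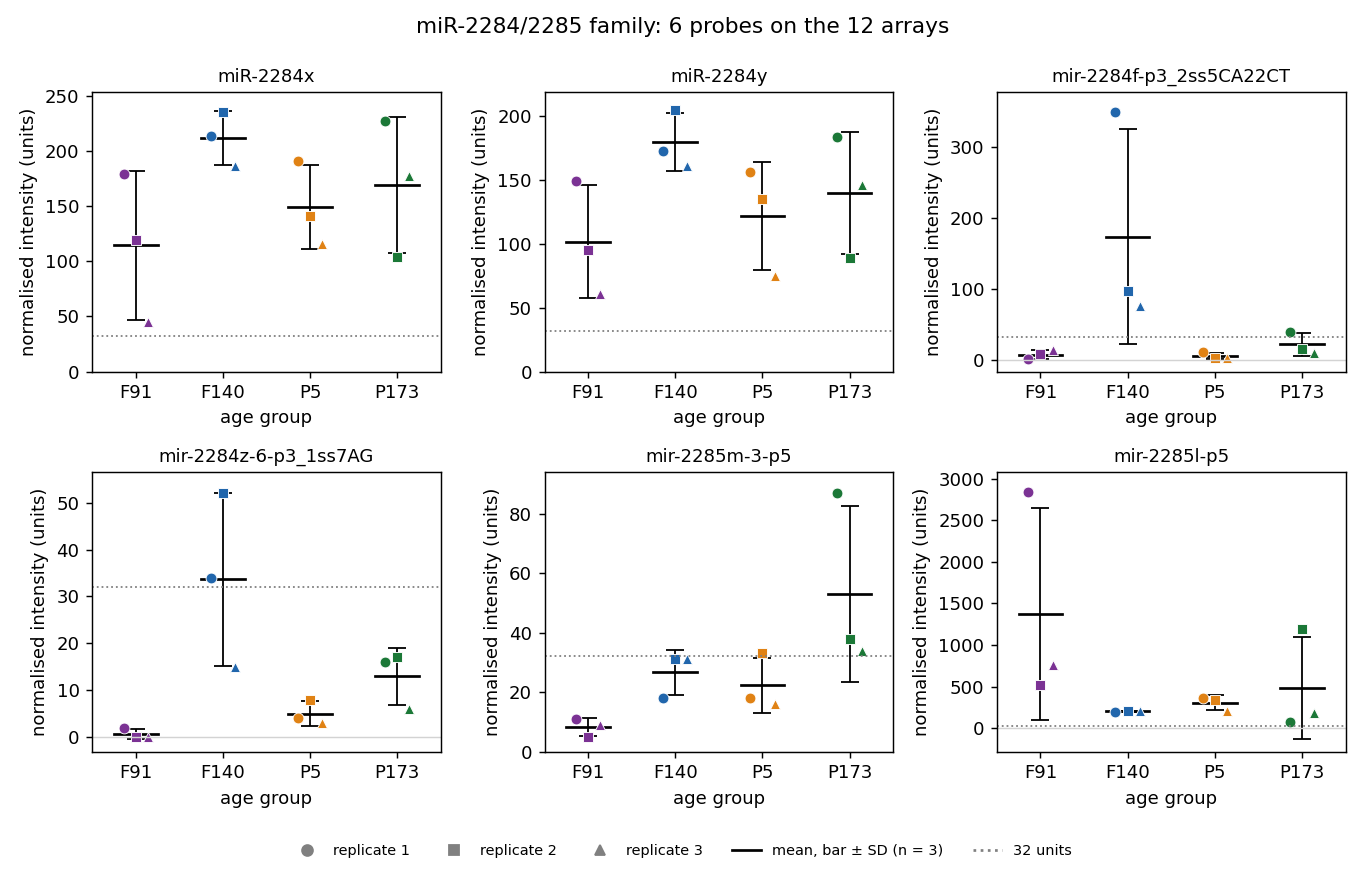
Normalised intensity in units (y axis) of 6 miR-2284/miR-2285 probes at each age (x axis); points are single arrays, horizontal bars means, whiskers SD (n = 3), and the dotted line marks 32 units. miR-2284x and miR-2284y stay above 32 units at all ages, mir-2284f-p3_2ss5CA22CT exceeds 32 units on all 3 F140 arrays and on 1 other, and mir-2285l-p5 is highest on F91 replicate 1, at 2835 units.

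Among the 78 other members, 9 reached 32 units at an age and limma called 1 of them. miR-2440_L+1R+5_1ss3GT read 539, 1372 and 844 units at P173 and 1607, 2847 and 2406 at F91, with no overlap, and fell by 1.38 on the log2 scale (SE 0.34, adjusted p = 0.023). It averaged 951 ± 67.6 units at F140 and 1288 ± 159 at P5, and its change at F140 relative to F91 was -1.23 (adjusted p = 0.051, and 0.049, a call, with the replicate block). Without P173 replicate 1 its change between P173 and F91 was -1.05 (adjusted p = 0.11), and it was also not called without F91 replicate 2, F91 replicate 3 or P173 replicate 3 (adjusted p = 0.095, 0.063 and 0.062), or with values under 32 set to 32 (adjusted p = 0.055).

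miR-3432 was measured on every array and no change was called. It averaged 243 ± 63.9, 159 ± 15 and 142 ± 30.5 units at F91, F140 and P5 and read 187, 146 and 210 units on the P173 arrays (F-test adjusted p = 0.47). mir-2484-p3_1ss9TC averaged 241 ± 72.7, 144 ± 41.3, 130.3 ± 48 and 94.3 ± 30.1 units, with a change of -1.36 at P173 relative to F91 (SE 0.41, adjusted p = 0.063). miR-2424 averaged 87.7 ± 53.8, 36.3 ± 21.5, 38.7 ± 4.04 and 21 ± 11.5 units at the same ages (F-test adjusted p = 0.33).

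mir-2311-p5_1ss4CT averaged 38.3, 53, 103 and 77 units, mir-2313-p5_1ss6CG 116, 52.7, 110.0 and 32.7, and mir-2410-p5_1ss7AT 118, 30.7, 76 and 33.7 at F91, F140, P5 and P173. The high F91 means of mir-2313-p5_1ss6CG and mir-2410-p5_1ss7AT come from replicate 3, at 230 and 268 units. miR-2332_L-6 and miR-2411-3p_L-6_1ss25CT were at most 32.3 and 33 units at their brightest age. mir-2319a-p5 was called by the F-test and for P173 against P5 (adjusted p = 0.016 and 0.036) at levels under 32 units on all arrays: 5.67 units at P173 and 0 on each P5 array. Its call for P173 against P5 ended in 18 of 24 alternatives, among them a pseudocount of 1, the values with decimals and the replicate block.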

How the data were processed

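Total RNA of each left ventricle had been hybridised by a service provider (LC Sciences) to a single-colour (Cy3) array with 3 spots for each member. The authors deposited the median scanner intensity per spot. Before they deposited them, the authors also made score values in whole numbers, on a linear scale, by subtracting background, applying lowess and merging the spots of a probe. The deposited intensity table holds the same values with decimals. The whole-number score was used here. Neither gives detection calls. The study's methods name the CLCBIO Genomics Workbench for background correction and normalisation, without a version.

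The 3091 probes other than controls were fitted as log2(value + 0.1) with limma 3.58.1 in R 4.3.3 (lmFit, eBayes with a variance trend), giving 1 F-test for all ages and 4 contrasts. Fold bounds were taken at 32 units. In this main fit, p-values rest on the spread between animals within an age, pooled over the 4 ages and moderated across probes. The number of 3 animals per age limits the precision. Probes were named in full where the arm's brightest age mean was 32 units or more, as the exact bovine probe or else the brightest one; other called members were given by their age means or range. Deviations from the age means over 775 bright probes of F91 and F140 arrays with the same number correlated at 0.513, 0.495 and 0.511, so these were also fitted as pairs, although the animals differ. The members, lists and tests were chosen with earlier results of these data known. Tables and plots were made in Python 3.11.15 with pandas 2.3.3, numpy 2.4.6 and matplotlib 3.10.9. Alternatives were another pseudocount, a floor and a filter at 32 units, the table with decimals, scanner intensities and no variance trend. Others were the GC trend taken out, the replicate block, unmoderated tests per probe, 1 probe per name, 2 ages alone and each array left out. The tests per probe were an ANOVA over the 4 ages, as the study's methods name, and a t-test of both ages for each comparison. The study's methods name no such t-test.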

Additional observations from a re-analysis of the deposited data

How the results depend on the processing

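Of 72 called results of single probes, none reversed under any alternative, and 1276 of 1676 values over the alternatives kept their call. Many alternatives could not reverse a call, because they leave the fitted change as it is. Among them are no variance trend, the replicate block, the tests per probe, 1 probe per name, the filter and both ages alone. Leaving out an array of an age not compared also leaves the change as it is. The number of members past the F-test (24) was 11 with 1 probe per name and 18 to 26 with each array left out. For F140 against F91 (19) it was 6 without the variance trend and 8 with the GC trend taken out. By the t-test per probe it was 1, and with 1 probe per name 8. It was 1 with both ages alone, 0 with both ages alone and the replicate block, and 5 with the block and the GC trend taken out. It was 3 to 23 with each array left out: 3 without F140 replicate 1, 9 without F140 replicate 3 and 10 without F91 replicate 2. For P5 against F140 (5) it was 11 with the filter at 32 units, which tests 57 members and fewer probes in all. It was 1 without the variance trend, 0 by the t-test per probe and 2 with both ages alone. With the replicate block added to both ages alone it was 0, and 2 with the block and the GC trend taken out. It was 0 to 7 with each array left out: 0 without F140 replicate 1, P5 replicate 1 or P5 replicate 3, and 1 without F140 replicate 2 or P5 replicate 2. For P173 against P5 (3) it was 1 without the variance trend, by the t-test per probe and with 1 probe per name. It was 0 with both ages alone and the replicate block, and 0 to 5 with each array left out. That was 0 without P5 replicate 1, P5 replicate 2, P173 replicate 1 or P173 replicate 2, and 5 without F91 replicate 1. For P173 against F91 (21) it was 7 by the t-test per probe, 8 with 1 probe per name and 12 with both ages alone. With the replicate block added to both ages alone it was 0, and 13 with the block and the GC trend taken out. It was 14 to 24 with each array left out. In these fits of both ages alone with the block, limma gave 49, 33, 14 and 30 members an unadjusted p under 0.05 in the 4 comparisons in the order above. These were 17%, 11.5%, 4.86% and 10.4% of the members, against 17.2%, 14.5%, 9.64% and 10.3% of all probes. With both ages alone and no block, the calls were 0.347%, 0.694%, 1.04% and 4.17% of the members, against 0.291%, 0.809%, 1.49% and 2.94% of all probes. In the fit of the 4 ages the block gave 22 members past the F-test, and in the 4 comparisons 18, 5, 2 and 20. Those 4 counts were 6.25%, 1.74%, 0.694% and 6.94% of the members, against 5.69%, 1.88%, 1.78% and 6.41% of all probes. With the GC trend taken out instead, the calls were 2.78%, 1.74%, 0.694% and 7.64% of the members. Over all probes they were 5.08%, 1.97%, 1.29% and 6.86%. Counts under the other alternatives have no share over all probes beside them, and cannot show whether a shift was particular to the members. Beyond F91 and F140 the arrays share only a number: over all 18 same-numbered pairs the correlation of deviations ran between -0.525 and 0.513, 7 of them over 0.1, and in 13 of 36 cases the best match of an array carried its number. The cause of these shifts was not tested, except that 1 probe per name and the filter change the number of probes tested. Of 288 members, 61 averaged 32 units or more at an age. The others averaged under 32 units at every age, and 3 of the 24 members past the F-test were among them, so no fold is given for these.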
